A study of Ovis aries with 10 samples.

Results

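Potassium channel genes were described in the mediobasal hypothalamus of the ewe, a ventral region that includes the arcuate nucleus and, below it, the median eminence. Members were the genes whose symbol in the deposited table was KCN followed by letters and then a number, and KCNJ8 and KCNJ13 were left out by the rule. This gave 92 genes of the 33775 in the table. By letter family they were 40 voltage-gated pore-forming genes, 12 accessory subunits, 13 inward rectifiers, 15 tandem-pore (KCNK) channels and 12 calcium- or sodium-activated channels with their subunits. Tissue came from 20 adult Ile-de-France ewes, 10 in the follicular phase, before ovulation, and 10 in the luteal phase, when the corpus luteum secretes progesterone. The RNA of 2 randomly chosen ewes of a phase was mixed in equal amounts, giving 5 mixes a phase, and each mix made 1 library, so a library is a mean over animals and no ewe is in both phases. The labels name no treatment, and progesterone cannot be told apart from the other hormones that change between the phases.

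Potassium channels let potassium leave the cell and so hold the resting potential and shape the firing of neurons. Voltage-gated (Kv) channels end the action potential and set the delay to the next. Inward rectifiers hold the resting potential and include channels opened by G proteins, which carry inhibition by opioids and GABA, and channels closed by ATP, which couple firing to glucose. Tandem-pore channels carry the leak current, and calcium-activated channels follow the spike with a pause. In the arcuate nucleus, potassium currents of these kinds are known targets of oestradiol and of opioid peptides. Accessory subunits have no pore and change the gating or the traffic of the channel that they bind.

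Libraries held 20644992 to 43193449 reads, and the 92 genes took 0.154% to 0.178% of them. Depth went partly with phase. Follicular 1 to 4 held 20644992 to 28669577 reads and the luteal libraries 28571863 to 42358557. Follicular 5 was the deepest library, and follicular 1 and 3 were the shallowest. The part of depth in the results below was not tested. Levels are given as CPM, counts scaled to a common library total after each total was multiplied by its TMM scaling factor. These factors ran from 0.913 (follicular 3) to 1.088 (luteal 5). CPM are not corrected for transcript length and so are compared between libraries and not between genes. Marker genes of neurons (11 of 11 matched in the table, summed level 1484 to 1672 CPM in follicular and 1239 to 1691 CPM in luteal libraries) and of astrocytes (7 of 8, 1079 to 1377 and 904.5 to 1485 CPM) were present in every library. Those of pituitary tissue (6 of 7) summed to 3170 to 4757 and 2346 to 4619 CPM. Single pituitary genes were less even, and PRL ran from 144 to 2721 CPM and TSHB from 82.5 to 648 CPM over the 10 libraries. CGA was lower in every luteal than in every follicular library, as in 0.514% of all genes tested (log2 fold change of luteal over follicular -0.60, SE 0.17). Choroid plexus markers summed to 25.4 to 58.0 CPM in the follicular and 37.7 to 120.2 CPM in the luteal mixes, and all 6 tested averaged higher in luteal. All 14 listed ribosomal protein genes averaged lower in luteal libraries, with 1.25% to 2.304% of the reads in follicular and 1.29% to 1.85% in luteal libraries. Of the listed markers with enough reads to be tested, POU1F1 of the pituitary list was at 0 in follicular 3, and the others had reads in every library. The part of these differences in the results below was not tested, and in a piece of tissue fewer cells of a type cannot be told apart from less RNA per cell.

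No potassium channel gene was called different between the phases. Of the 92 genes, 77 had enough reads to be tested, with 131 to 53079 reads over the 10 libraries, and 0 passed the edgeR quasi-likelihood test after Benjamini-Hochberg adjustment over all 18276 genes tested (smallest adjusted p = 0.426), where 0% of all genes passed. Limma-voom also called 0 of them. DESeq2 called 0 of them and 0.192% of all genes, but gave no adjusted p for 8 of the 77, and the smallest DESeq2 adjusted p was 0.155, for KCNF1. At an unadjusted edgeR p under 0.05 there were 9 members, or 11.7%, against 11.4% of all genes tested. Of these 2 averaged higher in luteal libraries, against a background of 4.27%, and 7 averaged lower, against a background of 7.12%. The members' share was thus close to that of all genes. Fold changes are luteal over follicular throughout. The median log2 fold change was -0.01 over the members and 0.01 over all genes, with the middle 50% of members between -0.20 and 0.14. In all, 35 members averaged higher and 42 lower, where 51.5% of all genes averaged higher.

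**Figure D1:**
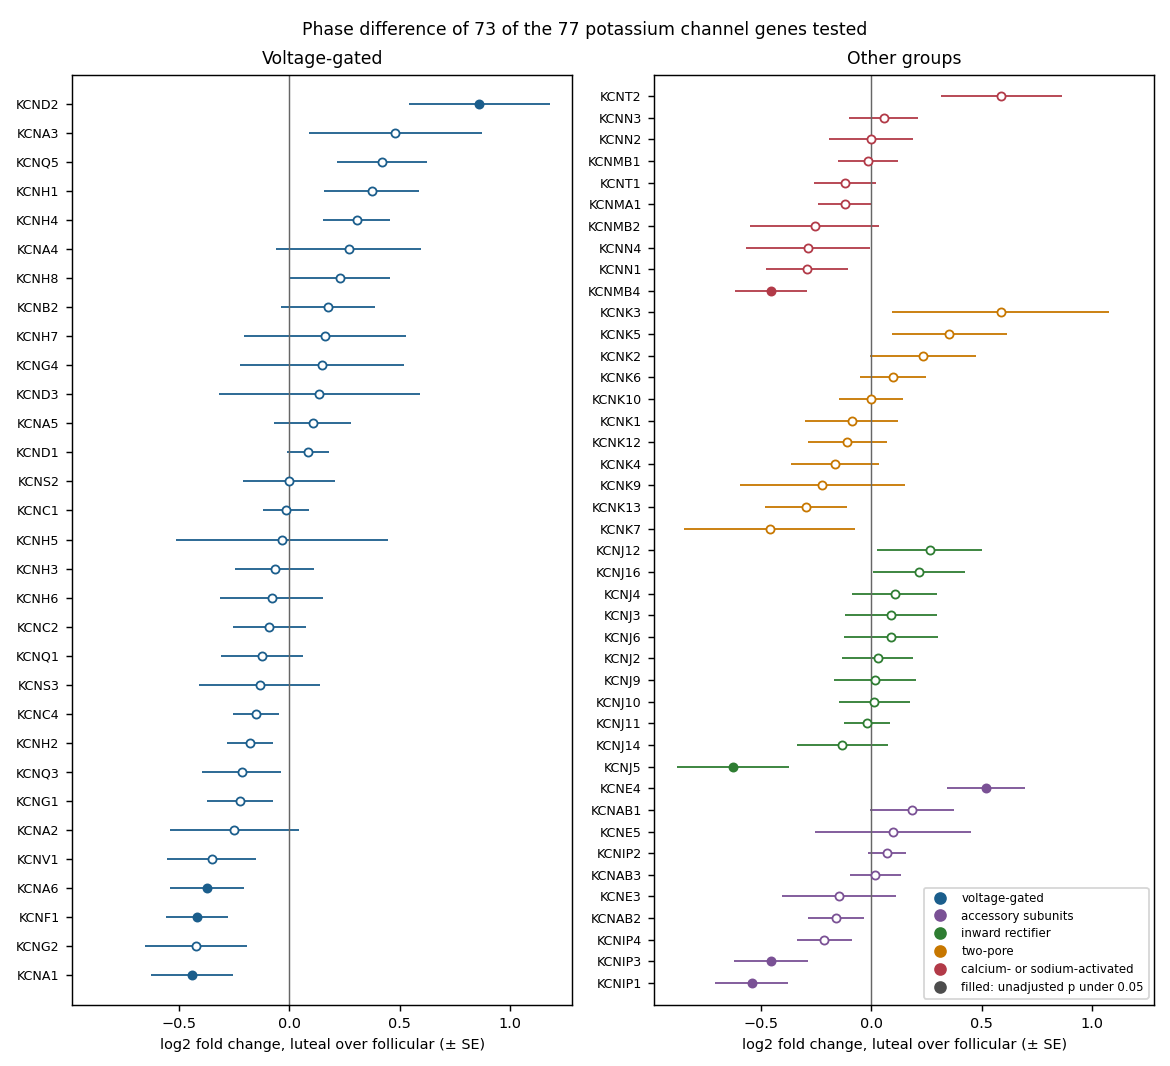
Log2 fold change of luteal over follicular libraries (x axis, points, with bars of 1 SE) for 73 of the 77 tested potassium channel genes (y axis), coloured by group and filled where the unadjusted edgeR p was under 0.05. The 9 filled points lie between -0.62 (KCNJ5) and 0.86 (KCND2), and the open points lie between -0.46 (KCNK7) and 0.59 (KCNT2).

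The count of members at an unadjusted p under 0.05 depended on single libraries, as did that of all genes. Without follicular 5 it was 8 higher and 10 lower, with 34.2% of all genes under that p. Without luteal 3 it was 1 higher and 3 lower, with 5.46% of all genes. The number higher was 4 without luteal 1 and 4 without luteal 5, with 16.9% and 5.98% of all genes under that p in either direction. The number lower was 4 without follicular 2, 4 without follicular 4 and 4 without luteal 4, with 11.4%, 5.71% and 15.4% of all genes. With any of the 10 libraries left out, 0 members passed the adjusted test.

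In 2 of the 77 members the levels of the 2 phases did not overlap, or 2.60% against 1.12% of all genes tested. The first was KCNE4 (gene 101120989), an accessory subunit known to reduce the current of some Kv channels. KCNE4 held 1.38, 1.43, 1.11, 1.65 and 1.57 CPM in follicular libraries 1 to 5 and 1.98, 1.94, 2.16, 1.98 and 2.24 CPM in the luteal mixes 1 to 5. Every luteal library was above every follicular library, which held for 0.607% of all genes (log2 fold change 0.52, SE 0.18, unadjusted p = 0.0128). The second was KCNF1 (gene 101103556), a silent Kv subunit that forms no channel alone and modifies other Kv channels. KCNF1 held 7.07, 6.64, 8.17, 6.78 and 6.49 CPM in the follicular and 5.07, 5.18, 4.48, 6.21 and 5.34 CPM in the luteal libraries. Here every luteal library was below every follicular library, as in 0.514% of all genes (log2 fold change -0.42, SE 0.14, unadjusted p = 0.0129). Both kept their direction in each of the 20 alternative settings, with log2 fold changes from 0.41 to 0.57 for KCNE4 and from -0.48 to -0.32 for KCNF1.

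**Figure D2:**
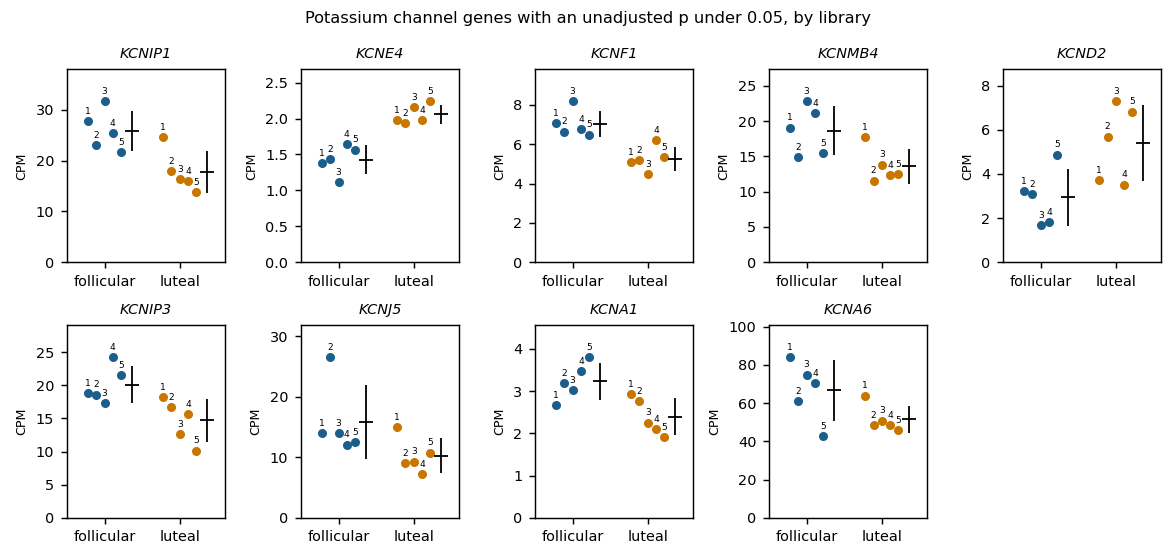
Level in CPM (y axis, starting at 0) of the 9 potassium channel genes with an unadjusted p under 0.05, for each follicular and luteal library (x axis, points, numbered by library), with the mean and SD of each phase in black. The phases are apart in KCNE4 and KCNF1 and overlap in the other 7 genes, and follicular 2 stands above the rest in KCNJ5.

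Among the Kv1 channels, which open near threshold and are found on axons, 3 of the 6 tested members averaged higher and 3 lower. KCNA1 (gene 105614925) held 2.66, 3.19, 3.02, 3.48 and 3.81 CPM in follicular libraries and 2.93, 2.77, 2.26, 2.103 and 1.91 CPM in the luteal mixes (log2 fold change -0.44, SE 0.18, unadjusted p = 0.0353). Its 3 lowest libraries were luteal 3, 4 and 5, and follicular 1 lay within the luteal range. KCNA6 (gene 105608581), a neighbour of KCNA1 on the chromosome, held 84.1, 60.8, 74.8, 70.6 and 42.5 CPM and 63.9, 48.3, 50.8, 48.5 and 45.7 CPM in the same order (log2 fold change -0.37, SE 0.17, unadjusted p = 0.0478). Its lowest library was follicular 5, which lay below every luteal library, and without follicular 1 and 3 its log2 fold change was -0.17. KCNA2 held 1.02, 0.697, 1.49, 0.936 and 0.6099 CPM in the follicular mixes and 0.829, 0.828, 1.06, 0.611 and 0.612 CPM in the luteal mixes, and all 5 luteal libraries lay within the follicular range (log2 fold change -0.25, SE 0.29). KCNA5 held 172, 154, 141, 165 and 137 CPM and 95.6, 169, 164, 190.5 and 208 CPM. Its luteal libraries were the more spread, with luteal 1 the lowest and luteal 5 the highest of all 10 (log2 fold change 0.11, SE 0.18). KCNA3 and KCNA4 averaged higher in luteal libraries (log2 fold changes 0.48 and 0.27) with SEs of 0.39 and 0.33. KCNA7 and KCNA10 had too few reads to be tested.

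KCND2, which encodes the pore of a transient A-type channel of dendrites, had the highest log2 fold change of the members. It held 3.23, 3.08, 1.698, 1.84 and 4.88 CPM in the follicular mixes and 3.71, 5.69, 7.28, 3.52 and 6.83 CPM in the luteal mixes (log2 fold change 0.86, SE 0.32, unadjusted p = 0.0194, gene 101122690). Follicular 5 lay inside the luteal range, and luteal 1 and 4 lay below follicular 5. Without follicular 5 its log2 fold change was 1.13, and in a fit with the first principal component of all genes as a further term it was 0.40. KCND1 (log2 fold change 0.09, SE 0.10) and KCND3 (log2 fold change 0.14, SE 0.45) also averaged higher, by less than their SE. KCND1 was the steadiest of all tested members, with its highest library 1.24-fold above its lowest.

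KCNC1, a channel of fast-spiking neurons, held 16.9, 18.1, 16.8, 16.3 and 20.4 CPM in the follicular mixes and 18.4, 17.1, 17.8, 16.99 and 17.4 CPM in the luteal mixes. Follicular 5 was the highest, and the 95% interval of the log2 fold change ran from -0.24 to 0.21. KCNC2, KCNC4 and KCNB2 had log2 fold changes of -0.09, -0.15 and 0.18 and overlapped between phases. Silent subunits other than KCNF1 were KCNG1, KCNG2, KCNG4, KCNS2, KCNS3 and KCNV1. KCNG2 held 13.6, 11.7, 12.5, 13.1 and 7.297 CPM in the follicular mixes and 12.7, 7.996, 7.51, 9.56 and 5.604 CPM in the luteal mixes (log2 fold change -0.42, SE 0.23). It was lowest in luteal 5 and follicular 5, and with the first principal component as a further term its log2 fold change was -0.05. The other 5 had log2 fold changes from -0.35 (KCNV1) to 0.15 (KCNG4).

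Of the 8 KCNH genes, which encode the ether-à-go-go family, 4 averaged higher and 4 lower. KCNH2, the ERG channel that damps repetitive firing, held 122, 115, 129, 138 and 96.9 CPM in the follicular mixes and 112, 108, 102, 114 and 97.01 CPM in the luteal mixes (log2 fold change -0.18, SE 0.10). Follicular 5 and luteal 5 held almost the same lowest level. KCNH4 held 5.22, 8.07, 7.91, 6.63 and 6.84 CPM and 9.002, 8.95, 9.28, 8.34 and 7.299 CPM, and luteal 5 was the single luteal library below the 2 highest follicular libraries (log2 fold change 0.31, SE 0.15, unadjusted p = 0.0684). KCNH1 held 6.61, 5.68, 4.19, 5.21 and 5.79 CPM in the follicular mixes and 6.83, 8.901, 6.06, 9.39 and 4.45 CPM in the luteal mixes, of which luteal 5 lay inside the follicular range, as did luteal 3 (log2 fold change 0.37, SE 0.22). KCNH5 was the most uneven of all tested members, at 0.0978 CPM in luteal 4 and 0.922 CPM in follicular 1, and its counts were low (138 reads in all).

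KCNQ3 and KCNQ5 encode subunits of channels that carry the M-current, a slow potassium current that transmitters switch off and that oestradiol is known to act on in arcuate neurons. KCNQ3 held 22.9, 33.7, 26.7, 32.8 and 45.6 CPM in the follicular mixes and 33.2, 27.6, 30.2, 21.9 and 26.7 CPM in the luteal mixes, with follicular 5 the highest of the 10 and follicular 1 near the lowest (log2 fold change -0.22, SE 0.18). KCNQ5 held 41.1, 49.3, 46.5, 47.2 and 74.3 CPM and 50.99, 76.7, 76.2, 49.4 and 92.8 CPM, with luteal 2, 3 and 5 and follicular 5 high and the other 6 libraries between 41.1 and 51.0 CPM (log2 fold change 0.42, SE 0.20, unadjusted p = 0.0632). With the first principal component as a further term the log2 fold change of KCNQ5 was 0.07. Without follicular 5 it was 0.59 (edgeR adjusted p = 0.0646, the lowest of its alternatives, which reached 0.994). Leaving out follicular 5 also raised the share of all genes at an unadjusted p under 0.05, as given above. KCNQ1, best known from heart and epithelia, had a log2 fold change of -0.12 (SE 0.19).

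Of the 12 accessory subunit genes 10 were tested, 5 averaging higher and 5 lower. KCNIP proteins bind calcium and the KCND channels, and 3 of the 4 KCNIP genes averaged lower in luteal libraries. KCNIP1 (gene 101105527) had the smallest p of all members. It held 27.7, 23.03, 31.6, 25.4 and 21.7 CPM in the follicular mixes and 24.7, 17.9, 16.3, 16.01 and 13.8 CPM in the luteal mixes (log2 fold change -0.54, SE 0.17, unadjusted p = 0.00697), ranking 198 of the 18276 genes tested. Luteal 1 lay inside the follicular range and the other 4 luteal libraries below it. KCNMB1 and KCNIP1 overlap in the reference gene table, so the counts of both are uncertain if strand was not used in counting. KCNMB1 itself averaged 6.14 ± 0.343 CPM (SD, n = 5) over the follicular mixes and 6.08 ± 0.683 CPM over the luteal mixes (log2 fold change -0.01, SE 0.14).

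KCNIP3, known both as a channel partner and as a calcium-regulated repressor of transcription, held 18.8, 18.6, 17.3, 24.3 and 21.6 CPM in the follicular mixes and 18.2, 16.7, 12.7, 15.7 and 10.1 CPM in the luteal mixes. Luteal 1 was inside the follicular range and luteal 5 was the lowest (log2 fold change -0.45, SE 0.17, unadjusted p = 0.0202, gene 101114598). KCNIP4 had a log2 fold change of -0.21 (SE 0.13). KCNIP2 held 157, 158, 142, 151 and 146 CPM and 161, 175, 149, 166 and 141 CPM and was among the steadiest members (log2 fold change 0.07, SE 0.09). Of the Kv1 beta subunits, KCNAB2 held 71.2, 80.4, 64.9, 77.9 and 74.8 CPM in the follicular mixes and 80.4, 75.7, 62.1, 61.6 and 50.9 CPM in the luteal mixes, with luteal 5 the lowest (log2 fold change -0.16, SE 0.13), and KCNAB1 and KCNAB3 had log2 fold changes of 0.18 and 0.02. KCNE3 and KCNE5 had log2 fold changes of -0.15 and 0.10. KCNE1 and KCNE2 were not tested.

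Inward rectifiers opened by G proteins (GIRK) are built from KCNJ3, KCNJ5, KCNJ6 and KCNJ9. KCNJ5 (gene 101116101) had the lowest log2 fold change of the members. It held 13.98, 26.6, 13.96, 12.1 and 12.5 CPM in the follicular mixes and 14.98, 9.06, 9.28, 7.21 and 10.8 CPM in the luteal mixes (log2 fold change -0.62, SE 0.25, unadjusted p = 0.0303). Follicular 2 was far above every other library, luteal 1 was second, and without follicular 2 the log2 fold change was -0.35 (unadjusted p = 0.113). None of the other 3 GIRK genes had a log2 fold change beyond its SE, and the difference between them and KCNJ5 was not tested. KCNJ3 held 7.68, 9.46, 7.48, 8.02 and 9.41 CPM and 12.3, 8.69, 10.5, 5.26 and 8.03 CPM, with luteal 1 the highest and luteal 4 the lowest of the 10. KCNJ6 held 6.61, 5.21, 5.09, 5.21 and 9.89 CPM and 6.001, 6.39, 7.57, 5.87 and 8.36 CPM, highest in follicular 5 and luteal 5. KCNJ9 held 38.8, 36.1, 35.1, 31.8 and 21.8 CPM and 43.6, 36.4, 32.3, 29.9 and 23.3 CPM, and it was lowest in those same libraries, follicular 5 and luteal 5. Their log2 fold changes were 0.09 (SE 0.21), 0.09 (SE 0.21) and 0.02 (SE 0.19).

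KCNJ11 encodes the pore of the channel closed by ATP, which is found in arcuate neurons. It held 37.6, 38.7, 48.8, 47.01 and 36.5 CPM in the follicular mixes and 41.7, 39.05, 42.9, 41.5 and 40.2 CPM in the luteal mixes. All 5 luteal libraries lay inside the follicular range, and the interval of the log2 fold change ran from -0.25 to 0.21. ABCC8, its regulatory partner and not a KCN gene, averaged 109 ± 13.6 CPM (SD, n = 5) over the follicular mixes and 125 ± 24.4 CPM over the luteal mixes, a log2 fold change of 0.19 (SE 0.14).

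KCNJ10 and KCNJ16 encode the channel with which astrocytes take up potassium. KCNJ10 held 61.7, 62.8, 50.6, 53.7 and 52.5 CPM in the follicular mixes and 78.2, 63.5, 54.7, 44.9 and 42.7 CPM in the luteal mixes, so luteal 1 was the highest and luteal 5 the lowest of the 10 (log2 fold change 0.01, SE 0.16). KCNJ16 held 5.69, 9.43, 4.94, 7.12 and 9.56 CPM and 9.32, 9.24, 9.73, 6.503 and 8.12 CPM and was lowest in follicular 1 and 3 (log2 fold change 0.22, SE 0.21). The 7 astrocyte markers in the table summed to 1079 CPM in follicular 3, where KCNJ16 was lowest, and to 1485 CPM in luteal 1, where KCNJ10 was highest. Their sum was lowest, at 904.5 CPM, in luteal 4, and it rests mainly on S100B and SLC1A3. Averaged instead as log2 CPM less each gene's mean over the 10 libraries, the markers were lowest in follicular 3 (-0.65) and highest in follicular 5 (0.43). On that scale luteal 1 was at 0.19 and luteal 4 at -0.34. The part of the astrocyte share in the levels of both genes was not tested. KCNJ2, KCNJ4, KCNJ12 and KCNJ14 had log2 fold changes from -0.13 to 0.26. Of the 11 inward rectifiers tested 8 averaged higher and 3 lower, with a median log2 fold change of 0.03, where 51.5% of all genes averaged higher. Of those averaging higher, KCNJ2, KCNJ3, KCNJ4, KCNJ6, KCNJ9 and KCNJ10 did so by less than their SE.

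**Figure D3:**
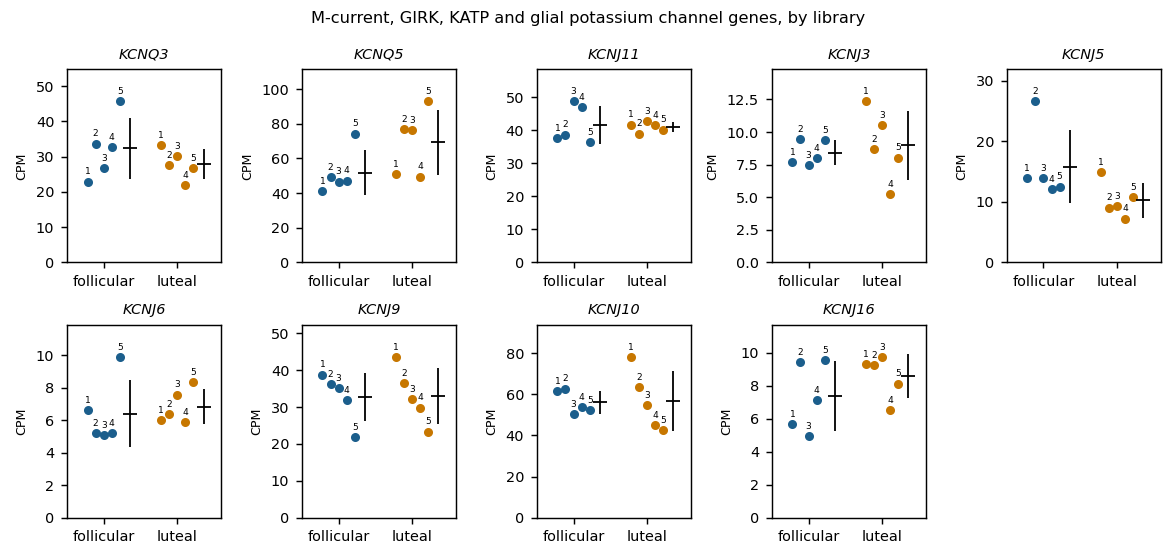
Level in CPM (y axis, starting at 0) of the M-current genes KCNQ3 and KCNQ5, the ATP-sensitive KCNJ11, the 4 GIRK genes and the glial KCNJ10 and KCNJ16, for each follicular and luteal library (x axis, points, numbered by library), with the mean and SD of each phase in black. The phases overlap in every panel, and the luteal libraries of KCNJ11, from 39.1 to 42.9 CPM, lie inside its follicular range.

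Tandem-pore channels carry leak current, and none of the 11 tested genes had an unadjusted p under 0.05 in the fit with phase alone. KCNK1 held 27.3, 33.6, 18.6, 24.2 and 24.5 CPM in the follicular mixes and 18.98, 22.9, 18.9, 37.7 and 22.1 CPM in the luteal mixes, with luteal 4 above all others. KCNK2, a channel opened by stretch and lipids, held 5.48, 8.18, 4.88, 5.28 and 10.5 CPM and 6.49, 7.35, 9.73, 6.89 and 10.1 CPM, highest in follicular 5 and luteal 5. KCNK4, its relative, held 16.5, 15.4, 17.8, 16.6 and 11.8 CPM and 19.4, 13.7, 12.4, 15.3 and 8.69 CPM, and it was lowest in these same libraries. KCNK5, a channel sensitive to alkaline pH, held 11.4, 8.802, 8.38, 7.57 and 5.84 CPM and 15.1, 14.4, 9.86, 7.92 and 6.22 CPM, with luteal 1 and 2 the highest (log2 fold change 0.35, SE 0.26). With the first principal component as a further term its log2 fold change was 0.65 (unadjusted p = 0.0189). KCNK9, sensitive to acid, held 0.512, 0.183, 0.318, 0.562 and 0.523 CPM and 0.195, 0.285, 0.322, 0.465 and 0.542 CPM, which rest on 131 reads in all. KCNK13, which in brain is best known from microglia, held 23.4, 20.9, 28.97, 20.9 and 15.1 CPM in the follicular mixes and 21.4, 18.2, 13.2, 20.9 and 15.2 CPM in the luteal mixes (log2 fold change -0.29, SE 0.19). It had the smallest p of the group (0.141). The 8 microglia and macrophage markers summed to 405.5 to 734.1 CPM in the follicular and 414.6 to 556.0 CPM in the luteal mixes. Of them 6 averaged lower in luteal, and the other 2, CX3CR1 and P2RY12, averaged higher (log2 fold changes 0.38 and 0.53). In follicular 3, where KCNK13 was highest, CX3CR1 and P2RY12 were at their lowest (12.5 and 7.11 CPM). The other markers were high there. AIF1, C1QA, C1QB and C1QC (53.3, 65.4, 127 and 134.5 CPM) lay below follicular 1 alone, and CSF1R and TYROBP below follicular 1 and 2 alone. The part of the 8 markers in KCNK13 was not tested. KCNK3, KCNK6, KCNK7, KCNK10 and KCNK12 had log2 fold changes from -0.46 (KCNK7, SE 0.39) to 0.59 (KCNK3, SE 0.49).

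Among the calcium- and sodium-activated channels 8 of 10 tested genes averaged lower in luteal libraries, with a median log2 fold change of -0.12. KCNMA1, the pore of the large-conductance BK channel, held 71.3, 59.7, 71.2, 63.6 and 89.5 CPM in the follicular mixes and 59.5, 66.6, 70.2, 57.4 and 73.6 CPM in the luteal mixes, with follicular 5 the highest (log2 fold change -0.12, SE 0.12). KCNMB4, the neuronal subunit that slows BK channels, held 19.1, 14.9, 22.8, 21.1 and 15.4 CPM and 17.7, 11.6, 13.8, 12.3 and 12.5 CPM (log2 fold change -0.45, SE 0.16, unadjusted p = 0.0168, gene 100620050). Luteal 1 lay among the follicular libraries and the other 4 luteal libraries lay below all of them. With the first principal component as a further term KCNMB4 had a log2 fold change of -0.26. KCNMB1 and KCNMB2 had log2 fold changes of -0.01 and -0.26 (SE 0.14 and 0.29). The SK channels KCNN2 and KCNN3 carry the pause after a burst. KCNN2 held 5.33, 4.95, 3.29, 5.09 and 4.68 CPM and 5.88, 4.399, 5.38, 3.67 and 4.05 CPM, and KCNN3 held 12.6, 12.5, 11.2, 9.85 and 12.9 CPM and 11.8, 12.01, 15.5, 8.997 and 13.1 CPM. Neither differed by more than its SE (0.19 and 0.16), and the intervals of the log2 fold change ran from -0.41 to 0.41 and from -0.29 to 0.40. KCNN1 and KCNN4 both had a log2 fold change of -0.29.

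The sodium-activated channels KCNT1 and KCNT2 had log2 fold changes of opposite sign, and neither was called. KCNT1 held 77.5, 90.6, 78.3, 82.1 and 63.01 CPM in the follicular mixes and 90.7, 83.6, 63.03, 62.00 and 61.4 CPM in the luteal mixes (log2 fold change -0.12, SE 0.14). KCNT2 held 2.66, 2.38, 2.49, 1.72 and 5.21 CPM and 4.07, 5.46, 3.96, 3.69 and 4.803 CPM, so follicular 5 lay inside the luteal range and the other 4 follicular libraries below it (log2 fold change 0.59, SE 0.27, unadjusted p = 0.0530). With the first principal component as a further term the log2 fold change of KCNT2 was 0.34 (unadjusted p = 0.163). Without follicular 5 it was 0.93 (edgeR adjusted p = 0.0606, the lowest of its alternatives, which reached 0.994). That low value is not particular to KCNT2, since KCNA6, KCND2 and KCNIP1 had the same lowest adjusted p. Leaving out follicular 5 also raised the share of all genes at an unadjusted p under 0.05.

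Over the 77 tested members the highest library was a median of 2.00-fold above the lowest, against 1.98-fold over all genes, and the coefficient of variation within a phase had a median of 19.1% in follicular and 19.3% in luteal libraries. The genes with the widest range apart from KCNH5 were KCNK3, KCND3, KCNK7 and KCND2, and those with the narrowest were KCND1, KCNIP2, KCNC1 and KCNAB3. KCNK3, KCND3, KCNK7, KCNA3 and those of the narrow group outside the rule for named genes were singled out after their values were seen. KCNK3, an acid-sensitive leak channel, held 2.82, 6.82, 2.55, 4.23 and 14.3 CPM in the follicular mixes and 3.59, 8.75, 10.1, 7.77 and 16.5 CPM in the luteal mixes. KCND3, another A-type channel, held 2.61, 2.75, 1.43, 1.57 and 7.32 CPM and 1.78, 3.49, 4.93, 2.25 and 5.13 CPM. KCNA3 held 2.71, 5.43, 2.55, 3.33 and 9.34 CPM and 4.83, 5.51, 9.73, 3.67 and 9.32 CPM. All 3 had their 3 highest levels in follicular 5, luteal 3 and luteal 5 and their lowest in follicular 3. KCNK7 held 2.56, 1.72, 2.02, 1.99 and 0.566 CPM and 2.000, 1.29, 1.26, 1.12 and 0.659 CPM, and its 2 lowest libraries were follicular 5 and luteal 5.

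Follicular 5, luteal 5 and luteal 3 were also the libraries with the lowest share of ribosomal protein reads (1.25%, 1.29% and 1.37%), and follicular 1 and 3 had the highest (2.303% and 2.304% in order of their numbers). The first principal component of all genes tested, which held 51.0% of the variance, ordered these libraries in a similar way, with follicular 3 and 1 at one end and luteal 5 and follicular 5 at the other. The part of this axis in the phase differences of single members was not tested. The component was taken from the same libraries with phase left in, and its lowest values were in follicular 3, 1 and 4 (-61.6, -53.2 and -35.8). Fits with it as a further term can thus take away part of the phase difference, and they cannot tell the axis from phase. In these fits 3 members averaging higher and 9 averaging lower had an unadjusted p under 0.05, with 7.97% of all genes under that p. Among the 9 members named for a small p, KCNA1 (-0.46) and KCNJ5 (-0.63) were the least altered in log2 fold change by the component, and KCNA6 (-0.06) was nearest to 0. The others were KCND2 at 0.40, KCNE4 at 0.42, KCNIP1 at -0.32, KCNF1 at -0.32, KCNMB4 at -0.26 and KCNIP3 at -0.38. Among the other named members, KCNMA1 moved away from 0 to -0.26 (unadjusted p = 0.0261) and KCNQ3 to -0.39 (unadjusted p = 0.0233), whereas KCNH2 moved to -0.02. Of the 77 members 17 were lowest in luteal 5 and 13 were highest in luteal 1, or 22.1% and 16.9%, against 17.6% and 7.41% of all genes.

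**Figure D4:**
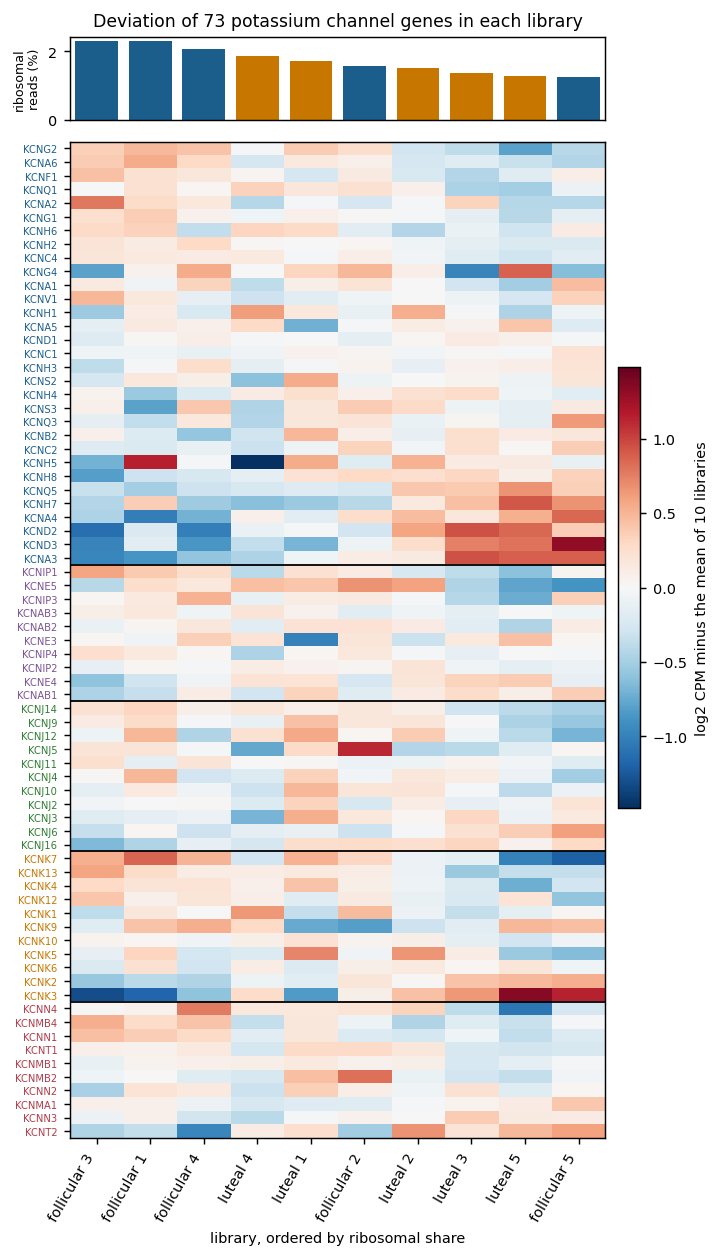
Deviation of log2 CPM from the mean of the 10 libraries (colour) for 73 of the 77 tested potassium channel genes (rows, name colour and black lines marking the groups) in each library (columns, ordered by the share of reads from 14 ribosomal protein genes, shown as bars in percent, blue for follicular and orange for luteal). KCND2, KCND3, KCNA3 and KCNK3 are mostly low on the left and high on the right, and KCNG2, KCNA6 and KCNK7 mostly the reverse.

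The 15 members that were not tested had 1 to 72 reads over the 10 libraries. They were KCNA7, KCNA10, KCNG3, KCNS1 and KCNV2 among the voltage-gated channels, KCNE1 and KCNE2 among the accessory subunits, and KCNJ1 and KCNJ15 among the inward rectifiers. The tandem-pore genes KCNK15, KCNK16, KCNK17 and KCNK18, the BK subunit KCNMB3 and the sperm channel KCNU1 completed the list. KCNU1 had 1 read, in a follicular library, and KCNK17 had 2 reads, both in 1 luteal library. A count of 0 over the 5 libraries of a phase allows up to 3 reads, or 0.0217 CPM for the follicular and 0.0155 CPM for the luteal phase, by counting error alone. KCNE1 averaged 0.192 ± 0.0728 CPM (SD, n = 5) over the follicular mixes and 0.06995 ± 0.0407 CPM over the luteal mixes. KCNMB3 averaged 0.133 ± 0.114 CPM (SD, n = 5) over the follicular mixes and 0.244 ± 0.146 CPM over the luteal mixes. These means rest on 42 reads in all for KCNE1 (1 to 10 a library) and 69 for KCNMB3 (0 to 19 a library). Both genes fall outside the rule for named genes, and their phase difference was not tested.

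Members that are neighbours on a chromosome were compared side by side. By the reference annotation, 10 pairs of members had no other protein-coding gene between their starts, and in 5 pairs both were tested. KCNA1 and KCNA6 both averaged lower in luteal libraries (-0.44 and -0.37), KCNJ10 and KCNJ9 had log2 fold changes of 0.01 and 0.02, and KCNJ2 and KCNJ16 had log2 fold changes of 0.03 and 0.22. KCNA2 and KCNA3 differed in sign (-0.25 and 0.48), and the overlapping KCNIP1 and KCNMB1 had -0.54 and -0.01. Of the 92 members 27 overlapped another gene of that table, KCND2, KCNMB4 and KCNQ5 among them, and their counts are uncertain to that extent.

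Other genes of potassium channel complexes were taken from a list of 25, of which 24 were tested. None was called and none had an unadjusted p under 0.05. In luteal libraries 16 averaged higher and 8 lower, with a median log2 fold change of 0.07, where 51.5% of all genes averaged higher. The lowest was LRRC52 (-0.60, SE 0.32) and the highest ABCC9 (0.51, SE 0.29). Values of single genes were planned only for an unadjusted p under 0.05, so ABCC8 above and the genes below fall outside that plan. DPP6, a membrane partner of the KCND channels, averaged 154 ± 13.9 CPM (SD, n = 5) over the follicular mixes and 156 ± 17.7 CPM over the luteal mixes, a log2 fold change of 0.01 (SE 0.10). Its relative DPP10 averaged 14.3 ± 3.102 CPM (SD, n = 5) over the follicular mixes and 19.8 ± 6.38 CPM over the luteal mixes, a log2 fold change of 0.47 (SE 0.23). SLC12A5, the neuronal potassium-chloride transporter that makes GABA inhibitory, averaged 82.8 ± 28.7 CPM (SD, n = 5) over the follicular mixes and 111 ± 20.6 CPM over the luteal mixes, a log2 fold change of 0.43 (SE 0.21). GABBR1, part of the GABA-B receptor that opens GIRK channels, averaged 469.9 ± 40.2 CPM (SD, n = 5) over the follicular mixes and 434 ± 33.9 CPM over the luteal mixes, a log2 fold change of -0.11 (SE 0.10). CNTNAP2, which holds Kv1 channels at the axon, averaged 50.5 ± 9.95 CPM (SD, n = 5) over the follicular mixes and 56.1 ± 10.4 CPM over the luteal mixes, a log2 fold change of 0.15 (SE 0.16).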

How the data were processed

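Gene-level counts of reads came from 10 RNA sequencing libraries, 5 per phase. TriReagent was used for extraction and a TruSeq stranded mRNA kit for the libraries, per the labels' protocols. The submitters' processing notes name featureCounts 2.0.0, SAMtools 1.9, Bowtie2 2.3.5.1, TopHat2 2.1.1, bcl2fastq 2.20 and FastQC, with no settings. The genome build, the strand setting and the treatment of reads shared by several genes are not given in the sources used here. In the single table that the authors deposited, each value is a raw count of reads for a gene.

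Counts were analysed in R 4.3.3 with the quasi-likelihood test of edgeR 4.0.16, two-sided and with no covariate beside phase, on genes kept by filterByExpr (minimum count 10, minimum total 15) with TMM scaling. The threshold was an adjusted p of 0.05, Benjamini-Hochberg over all 18276 genes tested. Standard errors and 95% intervals follow from that test. Spread is SD over n = 5 libraries, each a mix of different ewes, so p-values measure the spread between mixes. No pair of the 45 pairs of libraries agreed within sampling noise in a chi-square comparison of their genes (10 or more reads). Identifiers of all 92 members matched the RefSeq gene table of ARS-UI_Ramb_v3.0, used for names, order and overlaps, with no coordinates printed. No sequences are shown.

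Members, lists and the rule for named genes were chosen with earlier results of these data known. Named were members called by edgeR or DESeq2 1.42.0, the 8 with the smallest p in each direction, the 3 with the highest mean CPM and the 1 with the smallest p in each group, and a fixed set (KCNA1, KCNA2, KCNC1, KCND2, KCNQ3, KCNQ5, KCNJ3, KCNJ5, KCNJ6, KCNJ9, KCNJ11, KCNJ10, KCNJ16, KCNMA1, KCNN2, KCNN3, KCNK2 and KCNK9 among them), 40 genes in all. Of the tested members 4 are not reported here one by one and are in the counts over all members and groups. Alternatives were upper-quartile or RLE scaling, a filter at 1 CPM (5 libraries) or none, a block for replicate number, limma-voom (limma 3.58.1), DESeq2, robust dispersion, the first principal component (log2 CPM, prior count 2) as a covariate, leaving out each library, and leaving out follicular 1 and 3. The test was also run on simulated counts in which each gene was drawn independently. That run has no axis shared between genes, so it cannot show how the test behaves with the first principal component seen here.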

Additional observations from a re-analysis of the deposited data

Results flagged for a closer look

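Dixon's ratio, the gap between an extreme library and its neighbour over the whole range of the phase, was above its 95% limit for 5 samples (0.71) in 5 of the 80 groups of libraries tested (40 genes in each phase), and chance gives about 1 in 20, or 4. KCNJ5 was 26.6 CPM in follicular 2 against at most 14.0 CPM in the other follicular libraries. KCNQ5 was 74.3 CPM and KCNT2 5.21 CPM in follicular 5, against at most 49.3 and 2.66 CPM in the other follicular libraries. KCNA6 was 63.9 CPM in luteal 1 and no more than 50.8 CPM in luteal 2 to 5. KCNK1 was 37.7 CPM in luteal 4 where the next luteal library had 22.9 CPM.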

How the results depend on the processing

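In each of the 20 alternatives 0 potassium channel genes were called, and 25 of the 40 named genes kept their direction in every alternative that gave them a value. KCNK9, one of these, and KCNA2 had 19, since neither passed the filter of 1 CPM. Over all genes DESeq2 called 35 (0.192%), and leaving out 1 library gave 0 to 1 call, the single call without luteal 4. The number of members averaging higher at an unadjusted p under 0.05, 2 as reported, was 5 with the replicate block, 4 by DESeq2 (14.0% of all genes under that p in either direction), 0 without follicular 1 and 3 (3.23%) and 1 to 8 with each library left out. The number averaging lower, 7 as reported, was 8 with the replicate block, 4 without follicular 1 and 3 and 3 to 10 with each library left out. No label says that the replicate numbers pair the libraries, whose mixes were random, so the block is not the reported fit. Same-numbered libraries had correlations of their deviations from -0.33 to 0.63, and 3 of 5 follicular libraries correlated best with the luteal library of their own number. In the other direction only luteal 5 correlated best with its own number. Luteal 1 correlated best with follicular 3 (0.45, own number 0.36) and luteal 3 with follicular 5 (0.48, own number -0.33). Luteal 2 did so with follicular 1 and luteal 4 with follicular 3. Pairing was not tested. With the block 24.7% of all genes had an unadjusted p under 0.05, and it changed no call.

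Some log2 fold changes changed sign, to 0.0051 for KCNC1 and 0.020 for KCNN2 with upper-quartile scaling, 0.0069 for KCNN2 without a filter, and -0.018 for KCNJ10 with the replicate block and -0.017 by limma-voom. With the first principal component as a further term they were 0.014 for KCNT1, 0.064 for KCNJ11, 0.028 for KCNK13, 0.12 for KCNK4, 0.048 for KCNA2, -0.18 for KCNJ6, -0.089 for KCNN3 and -0.13 for KCNK2. Without follicular 1 and 3 they were 0.018 for KCNJ11, 0.086 for KCNA2 and -0.017 for KCNJ16. With each library left out the range was -0.041 to 0.046 for KCNC1, -0.13 to 0.10 for KCNJ10, -0.066 to 0.041 for KCNJ11, -0.052 to 0.23 for KCNJ3, -0.10 to 0.12 for KCNJ9, -0.31 to 0.035 for KCNK1, -0.10 to 0.075 for KCNN2 and -0.036 to 0.15 for KCNN3. The cause was not tested. Depth limits the members with few reads: for KCNK9 and KCNH5, with 131 and 138 reads in all, the 95% intervals of the log2 fold change ran from -1.04 to 0.59 and from -1.08 to 1.01.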
